A study of Mus musculus with 6 samples.

Results

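The genes described here are 10 members of the Notch pathway in MS-1 cells: the ligand genes Dll1, Dll4, Jag1 and Jag2, the receptor genes Notch1, Notch2 and Notch4, and the target genes Hes1, Hey1 and Hey2. They were picked by name from a deposited table of 29955 gene names, and all 10 were found in it. Of these, 7 averaged 1 FPKM or more (mapped fragments scaled to transcript length and to library size) and were tested among 11816 such genes. Jag2, Hey1 and Hey2 lay under that limit and are given as values only.

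MS-1 is an established mouse endothelial cell line of pancreatic origin. The cells were transfected with an LNA (locked nucleic acid) inhibitor that was a negative control or was directed at miR-31 or miR-27, and then kept for 72 hours without TGF-β2 or with TGF-β2 at 1 ng/ml. Each of these 6 conditions is 1 library of rRNA-depleted total RNA, so no condition has a replicate, and every library carries an inhibitor. Nothing in the labels tells separate cultures apart, and p-values below measure only the spread between these samples, which may be technical. The series asks how TGF-β changes endothelial cells toward a mesenchymal state and what miR-31 has to do with it.

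Notch signalling passes between touching cells. A ligand of the Delta (Dll) or Jagged (Jag) family on 1 cell binds a Notch receptor on its neighbour, the receptor is cut by an ADAM protease and then by γ-secretase, and the freed intracellular part joins the DNA-binding protein Rbpj in the nucleus and switches on genes of the Hes and Hey families. In blood vessels the pathway is known for arterial identity and for the choice between tip and stalk cells during sprouting.

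The files give no fragment totals, so absolute depth is unknown, but the spacing of the lowest values put 5 libraries at 81.7% to 90.3% of the depth of the negative control without TGF-β2. Of 12 endothelial markers, 11 passed the limit, all but Cldn5, and their summed level was 1841 to 1972 FPKM without TGF-β2 and 1871 to 1945 FPKM with it. Single markers moved both ways under that sum: 3 were higher with TGF-β2 (Emcn, Eng and Flt1) and 4 lower (Kdr, Egfl7, Esam and Tie1). No leukocyte, epithelial or pancreatic marker reached the limit for testing. The 6 leukocyte markers summed to 0.0804 to 0.109 FPKM without and 0.349 to 0.377 FPKM with TGF-β2, with Csf1r the highest of them in every library. The 9 epithelial and pancreatic markers summed to 0.177 to 0.510 and 0.762 to 1.39 FPKM, most of it Krt19, and Epcam, Pdx1 and Amy2a5 were listed at 0 in every library. Neither sum overlapped between the states. The 7 fibroblast and pericyte markers summed to 2.51 to 3.35 FPKM without and 18.4 to 23.1 FPKM with TGF-β2. Most of this was Pdgfra, at means of 2.23 and 17.6 FPKM. The 2 that were tested both rose, Pdgfra by 2.53 and Pdgfrb by 1.22 on the log2 scale. The untested Cspg4, Col1a1, Col1a2, Dcn and Lum were at most 0.444 FPKM in any library. The 6 smooth muscle markers summed to 26.5 to 28.0 and 29.1 to 36.2 FPKM, and without TGF-β2 most of this was Smtn. Myh11, Tagln and Cnn1 were not tested and were at most 0.608 FPKM in any library. Of the 3 tested, 2 were higher and 1 lower. Acta2, smooth muscle actin, rose from a mean of 0.135 to 12.9 FPKM (adjusted p = 9.202e-05), Des rose by 0.34, and Smtn fell from 25.6 to 17.5 FPKM. The part of these markers in the results below was not tested. The pair of libraries with the miR-31 inhibitor stood apart in more genes than the others. Its TGF-β2 response lay at least 1 log2 unit beyond both other responses in 58 of 11816 genes tested. The negative control had 22 such genes and the miR-27 inhibitor 23. None of these was one of the 7 tested Notch genes, which says little when so few genes stood apart.

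Without TGF-β2, Jag1 was the most abundant of the 10 transcripts, at 28.3 to 30.8 FPKM. FPKM is scaled to transcript length, so levels of different genes can be set side by side. Hes1 followed at 16.6 to 21.3, Notch1 at 14.6 to 16.2, Notch4 at 10.6 to 12.5, Dll1 at 10.3 to 11.2, Dll4 at 3.73 to 5.77 and Notch2 at 3.18 to 3.90 FPKM. The ranges of Notch4 and Dll1 overlapped, as did those of Dll4 and Notch2, so the order within those pairs is not beyond the spread. Jag2 reached 0.507 to 0.651 FPKM, and Hey2 and Hey1 lay near 0 with overlapping ranges. With TGF-β2 the order was Hes1, Jag1, Notch1, Notch4, Notch2, Dll1, Dll4, Jag2, Hey2 and Hey1, and no neighbouring ranges overlapped. The gap was narrow between the lowest Dll4 value, 0.621 FPKM, and the highest Jag2 value, 0.614 FPKM. Hey2 and Hey1 again lay near 0, so their order rests on very few fragments. Hes1 had moved past Jag1, and Notch2 past both Delta ligands.

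**Figure D1:**
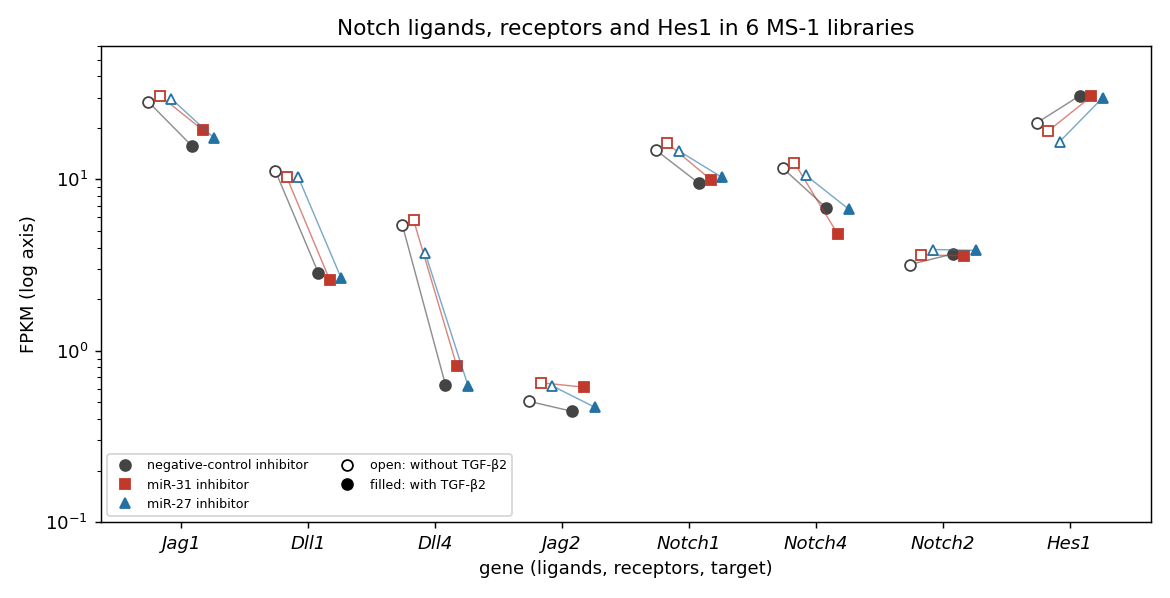
FPKM on a log axis for 8 of the 10 genes in each of the 6 libraries; open symbols are libraries without TGF-β2, filled symbols with TGF-β2, and lines join the 2 libraries of a transfection. Dll4 fell from 3.73 to 5.77 FPKM to under 1 FPKM, while Hes1 rose; Hey1 and Hey2, near 0, are not drawn.

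TGF-β2 lowered the RNA of all 3 tested ligands and of 2 of the 3 tested receptors, and raised Hes1. These tests used limma on log2(FPKM + 1) with the inhibitor as a second factor, so each difference is a mean over the 3 transfections. With 1 library per condition, the error is how far the responses differ between transfections, moderated over all genes. A real difference in response between inhibitors would enter as error. Of the 7 tested genes, 5 were lower and 1 higher at an adjusted p under 0.05. Over all genes tested, 27.5% were lower and 22.7% higher by the same rule, so calls were common in this comparison. In the same 5 genes all 3 libraries with TGF-β2 lay below all 3 without it, which was so for 31.6% of all genes tested, and in Hes1 all 3 lay above, as in 26.8% of all genes. The median difference of the 7 was -0.73, beside -0.02 over all genes tested. In bulk RNA, fewer cells expressing a gene and less RNA per cell cannot be told apart.

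Dll4 encodes the Delta ligand of arterial and tip endothelial cells. It stood at 5.44, 5.77 and 3.73 FPKM without TGF-β2 and at 0.635, 0.815 and 0.621 FPKM with it, in the order negative-control, miR-31 and miR-27 inhibitor, which is the order of all values below. Every library with TGF-β2 was far below every library without it, and the mean was 7.21-fold lower. On the log2(FPKM + 1) scale, which understates the change of a gene this low, Dll4 fell by 1.81 ± 0.09 (SE of the fit, adjusted p = 2.304e-04). With a pseudocount of 0.1 the difference was -2.67. The deposited locus of Dll4 is chr2:119146935-119161402 (mm9), and the overlapping name Gm14207 there reached at most 0.271 FPKM.

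Dll4 showed the largest fitted difference of the 7 tested genes, so its promoter is printed with the letters CAGAC in capitals, the core of the SMAD binding element through which TGF-β acts on DNA. The sequence is from RefSeq (GRCm38.p6, chr2:119325534-119325833, plus strand), 250 bases before to 50 bases after the transcription start, 5′ to 3′.
Dll4 promoter: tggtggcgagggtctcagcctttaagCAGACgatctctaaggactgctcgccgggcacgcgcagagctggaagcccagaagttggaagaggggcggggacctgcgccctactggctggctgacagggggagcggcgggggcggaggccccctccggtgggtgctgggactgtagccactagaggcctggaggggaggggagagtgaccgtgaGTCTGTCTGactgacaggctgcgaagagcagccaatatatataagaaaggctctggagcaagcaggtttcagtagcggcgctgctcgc
The letters occur 3 times, at -224 on the printed strand and, overlapping each other, at -38 and -34 on the opposite strand, with the start counted as 0. CAGAC on either strand is common, in 49.6% of 32851 promoters of this length, and a match is a description of letters, not of a bound site. Promoters of 8 of the 10 genes were in the table (all but Hes1 and Hey1), and 4 of the 8 held CAGAC in at least 1 promoter: Dll1, Dll4, Jag1 and Notch4.

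Dll1, the other Delta ligand, stood at 11.2, 10.3 and 10.3 FPKM without TGF-β2 and at 2.83, 2.58 and 2.64 FPKM with it. The 3 responses were nearly equal, at -1.67, -1.66 and -1.64. Dll1 fell by 1.66 ± 0.04 (adjusted p = 3.127e-05), a 3.95-fold lower mean, with the smallest standard error of the 7 genes. Its locus is chr17:15504318-15512787.

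Jag1, the Jagged ligand, which in sprouting vessels opposes Dll4, fell less than the Delta ligands. It stood at 28.3, 30.8 and 29.5 FPKM without and at 15.7, 19.3 and 17.3 FPKM with TGF-β2. The states did not overlap, and the difference was -0.73 ± 0.05 (adjusted p = 4.708e-04), a 1.69-fold lower mean (chr2:136907194-136942067). Jag2 was low throughout, at 0.507, 0.651 and 0.625 FPKM without and 0.443, 0.614 and 0.467 FPKM with TGF-β2, and its states overlapped (chr12:114146801-114167706).

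Because the Delta ligands fell further than Jag1, the make-up of the ligand RNA shifted. Jag1 was 62.3%, 64.8% and 66.8% of the summed FPKM of the 4 ligand genes without TGF-β2 and 80.1%, 82.8% and 82.3% with it. The sum itself went from 45.5, 47.5 and 44.2 FPKM to 19.6, 23.3 and 21.1 FPKM. These shares describe RNA per length and were not tested.

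Among the receptors, Notch1, the main receptor of endothelial cells, stood at 14.8, 16.2 and 14.6 FPKM without and 9.46, 9.98 and 10.3 FPKM with TGF-β2. It fell by 0.57 ± 0.05 (adjusted p = 0.00108), a 1.54-fold lower mean (chr2:26301465-26359342). The lower-case name notch1 at the same locus was listed at 0 in every library, and AK075572 there reached at most 0.209 FPKM.

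Notch4, a receptor largely restricted to endothelium, stood at 11.6, 12.5 and 10.6 FPKM without and at 6.84, 4.82 and 6.69 FPKM with TGF-β2. The miR-31 library treated with TGF-β2 was the lowest, and the states did not overlap. Notch4 fell by 0.83 ± 0.13 (adjusted p = 0.00633), the least precise of the 7 estimates, a 1.89-fold lower mean, and by 0.64 (adjusted p = 7.753e-04) when that library was left out. With no filter on low values the adjusted p was 0.0512. Its deposited locus, chr17:34363120-34725488, spans 362369 bases and is shared with 15 other names, none above 0.403 FPKM.

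Notch2 did not pass. It stood at 3.18, 3.62 and 3.90 FPKM without and 3.67, 3.59 and 3.85 FPKM with TGF-β2, so the states overlapped (chr3:97817461-97954290). The difference was 0.05 ± 0.05 (95% interval -0.09 to 0.18, adjusted p = 0.502). As Notch1 and Notch4 fell, the share of Notch2 in the summed FPKM of the 3 receptors went from 10.8%, 11.2% and 13.4% to 18.4%, 19.5% and 18.5%.

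Hes1, a repressor of the basic helix-loop-helix class and the best known Notch target, moved opposite to Dll1, Dll4, Jag1, Notch1 and Notch4. It stood at 21.3, 19.1 and 16.6 FPKM without and 30.8, 30.4 and 30.0 FPKM with TGF-β2. The 3 levels with TGF-β2 were within 1 FPKM of each other, and all were above every level without it. Hes1 rose by 0.66 ± 0.07 (adjusted p = 0.00182), a 1.60-fold higher mean (chr16:30065443-30067882).

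**Figure D2:**
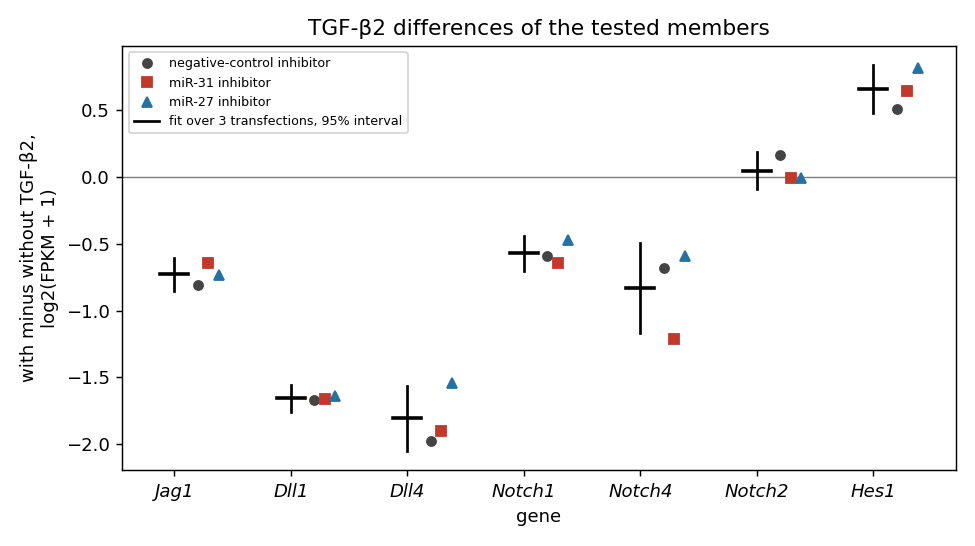
Difference with minus without TGF-β2 on the log2(FPKM + 1) scale for the 7 tested genes; black bars are the fit with its 95% interval, and symbols are the single responses of the 3 transfections. The Delta ligands lie lowest, at -1.81 and -1.66, Notch2 at 0.05 and Hes1 alone above 0.4.

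Hey1 and Hey2, targets related to Hes1 and known for arterial fate, were near 0 in all libraries. Hey1 was listed at 0 in 4 libraries, at 0.00522 FPKM with the negative-control inhibitor and TGF-β2 and at 0.0103 FPKM with the miR-31 inhibitor alone (chr3:8663359-8667038). Hey2 stood at 0.00401, 0.0177 and 0.00466 FPKM without and at 0.0314, 0.158 and 0.00981 FPKM with TGF-β2 (chr10:30552165-30562589). The states overlapped, and the highest value was that of the miR-31 inhibitor with TGF-β2.

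Values this low come in steps that show how few fragments lie behind them. After division by the relative depth of each library, every value of Hey1 and Hey2 was a whole multiple of that gene's smallest value, to within 0.034%. If the smallest value is 1 fragment, Hey1 had 1 and 2 fragments in the libraries above 0. Hey2 then had 1, 4 and 1 without TGF-β2 and 7, 34 and 2 with it. Heyl, the third gene of the family, was at 0 or 1 such step in every library. No comparison of Hey1 or Heyl between conditions was possible at this depth.

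Hey2 is the only one of the 8 genes whose promoter held the letters TGGGAA, the core that Rbpj binds, and it held them more than once. They are shown in capitals, on either strand, in the RefSeq promoter (GRCm38.p6, chr10:30842734-30843033, minus strand, 5′ to 3′).
Hey2 promoter: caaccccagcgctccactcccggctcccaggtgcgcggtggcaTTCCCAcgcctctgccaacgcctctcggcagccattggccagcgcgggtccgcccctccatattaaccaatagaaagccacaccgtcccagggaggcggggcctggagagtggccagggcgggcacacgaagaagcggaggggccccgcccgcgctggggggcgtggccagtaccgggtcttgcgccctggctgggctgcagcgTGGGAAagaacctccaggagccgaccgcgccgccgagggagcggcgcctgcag
The matches lie at -207 and -3 from the start. TGGGAA occurred in 25.6% of the 32851 promoters and at least 2 times in 3.79%. Both matches extend to CGTGGGAA, which 0.734% of the promoters held. The letters were present, and the RNA was near 0 in all 6 libraries.

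The other genes of the pathway, from lists of ligands, receptors and their processing, nuclear partners, targets and vessel fate, moved in both directions. Of 63 tested outside the 10, 20 were higher and 18 lower with TGF-β2, with a median of 0.05 beside -0.02 over all genes. By the same rule 22.7% of all genes tested were higher and 27.5% lower. Scaled to the same sum in every library, 25 of the 63 were higher and 11 lower. That scaling also turned 2677 higher and 3249 lower of all 11816 genes into 3513 and 1613. Of 5 genes that add sugars to Notch, 2 were higher: Lfng, a fringe enzyme that tunes which ligands a receptor answers to (0.43 ± 0.08, adjusted p = 0.0122), and Poglut1 (0.19). Of 9 genes for cleavage of the receptor, 2 were higher, the protease gene Furin (0.62) and Aph1b, a γ-secretase subunit (0.60), and none lower. Leaving out the miR-31 library treated with TGF-β2 gave 5 of 9 higher. Among the rest of that list, Adam10 (0.22, adjusted p = 0.0724) and Psenen (-0.17, adjusted p = 0.0590) did not pass. Adam10 was higher under upper-quartile scaling (adjusted p = 0.0444), under scaling to the same sum (0.0237) and when the treated miR-31 library was left out (0.0117).

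Of 5 tested genes for endocytosis of the ligands, 2 were lower, Epn1 (-0.45) and the ubiquitin ligase gene Neurl1b (-0.27), and Neurl1b did not pass under scaling to the same sum (-0.17, adjusted p = 0.0807). Of 9 genes for receptor turnover and inhibitors, 3 were higher and 3 lower. Over all genes tested 22.7% were higher and 27.5% lower, and the nuclear partners below lay near those shares. Nedd4, a ubiquitin ligase, rose by 0.70, and Dtx2 fell by 0.66. Itch (1.73) did not pass, and was listed at 0 in the negative control without TGF-β2 and at 25.7 to 29.6 FPKM in the other 5 libraries. Of 15 nuclear partners, 3 were higher, among them the corepressor genes Spen and Cir1 at 0.25 each. In the same list 4 were lower, led by the acetyltransferase gene Kat2a (-0.43), but only 1 was lower under scaling to the same sum. Over all genes tested, that scaling took the lower calls from 3249 to 1613. Rbpj itself did not pass (-0.18, adjusted p = 0.0669), but was lower when the miR-31 library treated with TGF-β2 was left out (-0.24, adjusted p = 0.0202).

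Other genes listed as targets of the pathway moved both ways. The list was chosen from general knowledge, and whether its genes answer to Notch in these cells was not tested. Nrarp, a target whose protein dampens Notch signalling, stood at 41.0, 35.0 and 31.4 FPKM without and 13.7, 10.9 and 11.8 FPKM with TGF-β2. It fell by 1.48 ± 0.06 (adjusted p = 1.341e-04), a 2.95-fold lower mean, and the states did not overlap. Of 7 tested genes in the target list, Hes1 included, 4 were higher and 2 lower, beside 22.7% and 27.5% of all genes tested. Unc5b, a netrin receptor that is also in the arterial and tip cell lists, rose by 2.97 ± 0.10 (limma adjusted p = 7.582e-05). It went from 1.39, 1.73 and 1.36 to 19.2, 16.6 and 20.0 FPKM. Ccnd1, the cyclin D1 gene, fell by 2.18 ± 0.04 (adjusted p = 2.474e-05), and Hes6 rose by 0.26. The other 12 genes of that list, among them Heyl, Dtx1, Gja4 and Gja5, were at most 0.392 FPKM. Notch3, the receptor of mural cells, was among them, at 0.150, 0.144 and 0.143 FPKM without and 0.307, 0.228 and 0.357 FPKM with TGF-β2. Its states did not overlap, but it lay under the limit for testing.

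**Figure D3:**
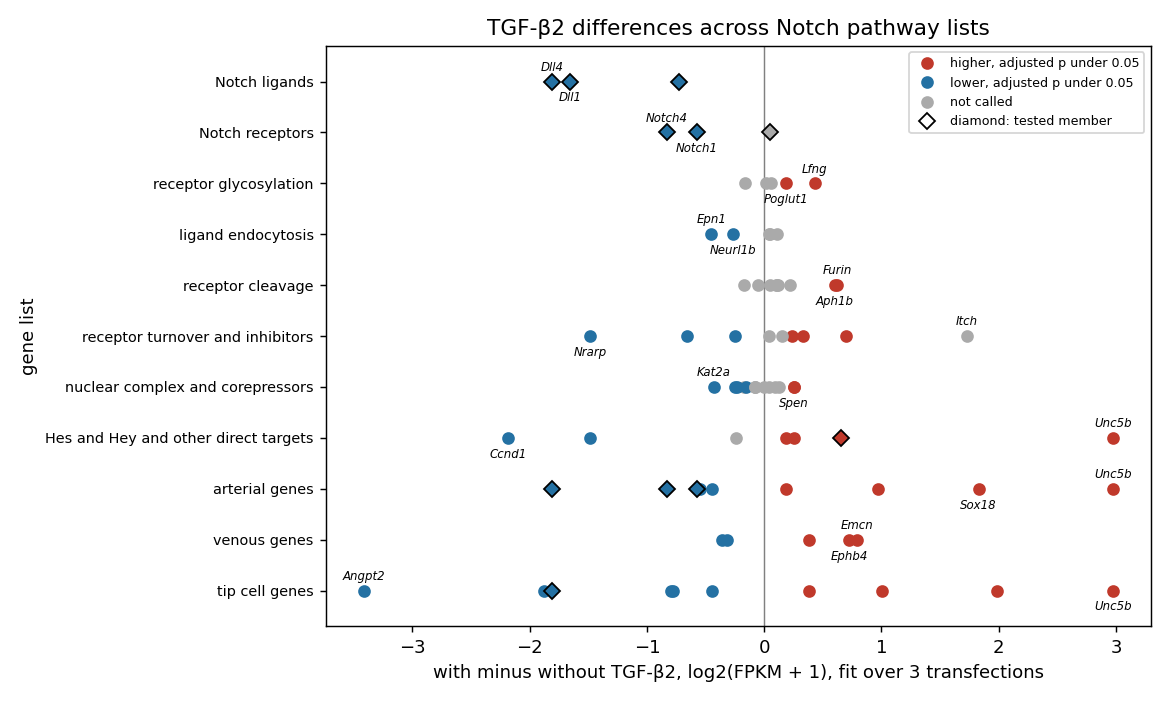
Each point is a tested gene (1 listed gene is not drawn), placed by its TGF-β2 difference on the log2(FPKM + 1) scale from the fit over 3 transfections, in rows for the pathway lists; colours give the call and diamonds mark the 7 tested of the 10 genes described here. A gene can stand in several rows. The 3 tested ligands lie left of 0, while the row of listed targets runs from Ccnd1 at -2.18 to Unc5b at 2.97.

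No Notch gene passed the test for either microRNA inhibitor. Both comparisons share the negative-control libraries. Against the negative control and over both TGF-β2 states, 0 of the 7 tested genes passed with the miR-31 inhibitor, beside 0.0339% of all genes tested, and 0 of 7 with the miR-27 inhibitor, beside 0.00846%. At an unadjusted limma p under 0.05 there was 1 gene for miR-31, Jag1, and 0 for miR-27, beside 2135 and 1470 of all 11816 genes tested. Few genes passed anywhere in these comparisons, so a missing call does not show that a gene is unaffected, and the intervals give what the data allow.

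The microRNAs that the inhibitors are directed at are printed with the seed, bases 2 to 8, in capitals. The sequences are from RefSeq (GRCm38.p6), and the labels do not say which arm or which miR-27 the inhibitors bind. The 2 forms of miR-27 share a seed.
miR-31-5p: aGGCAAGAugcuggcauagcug
miR-27a-3p: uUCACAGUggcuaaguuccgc
miR-27b-3p: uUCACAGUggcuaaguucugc
The reverse complement of each seed was searched in the longest annotated 3′ UTR of each gene (GENCODE vM21, GRCm38). The miR-31 site was in none of the 10 genes and in 13.3% of 9550 tested genes with a UTR. The miR-27 site was in Dll4 and, 2 times, in Notch2, and in 17.9% of the tested genes. The sites, with the match in capitals, lie at chr2:119334765-119334788 for Dll4 and at chr3:98148284-98148307 and chr3:98148406-98148429 for Notch2, all on the plus strand.
Dll4 site: tgaactgaacagACTGTGAacccg
Notch2 first site: ggaggcttaggtACTGTGAtattc
Notch2 second site: ccattgactgccACTGTGAagcac

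Neither gene with a miR-27 site passed with the miR-27 inhibitor, and their values lay on different sides of the negative control. Dll4 stood at 3.73 against 5.44 FPKM without TGF-β2, 68.4% of the negative control, and at 0.621 against 0.635 FPKM with it. The difference over both states was -0.23 ± 0.11 (95% interval -0.53 to 0.07, adjusted p = 0.471). Notch2 stood at 3.90 against 3.18 FPKM without and 3.85 against 3.67 FPKM with TGF-β2, a difference of 0.14 ± 0.06 (-0.03 to 0.31, adjusted p = 0.448). The intervals leave room for rises of 0.07 in Dll4 and 0.31 in Notch2 on the log2(FPKM + 1) scale.

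With the miR-31 inhibitor, Jag1 was higher in both states, at 30.8 against 28.3 FPKM without and 19.3 against 15.7 FPKM with TGF-β2. Its difference was 0.20 ± 0.06 (0.05 to 0.35, adjusted p = 0.236). Jag2 had the same order, at 128% of the negative control without and 138% with TGF-β2, but from values under 1 FPKM. Dll1 was at 91.8% and 90.9% of the negative control (-0.11, -0.23 to 0.02, adjusted p = 0.306). The remaining tested genes, Dll4 (0.11), Notch1 (0.10), Notch2 (0.06) and Hes1 (-0.08), had intervals that include 0.

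Notch4 lay on different sides of the negative control in the 2 states. It stood at 12.5 against 11.6 FPKM without TGF-β2 but at 4.82 against 6.84 FPKM with it, 70.4% of the negative control. The difference over both states was -0.17 ± 0.16 (-0.58 to 0.25, adjusted p = 0.579). With the untreated miR-31 library left out it was -0.45 (adjusted p = 0.0285), and with the treated one left out it was 0.12 (adjusted p = 0.452). In each of these fits 1 library stands for the inhibitor and is assumed to vary like the others. In the first, 1137 of all genes passed, against 4 with all libraries. Whether the TGF-β2 response of Notch4 depends on the inhibitor was not tested. Its responses were -0.68, -1.21 and -0.59.

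For the miR-27 inhibitor the other tested genes ranged from Hes1 at -0.19 ± 0.08 (-0.41 to 0.03, adjusted p = 0.431) to Jag1 at 0.10 (-0.06 to 0.25, adjusted p = 0.535). Hes1 stood at 16.6 against 21.3 FPKM without TGF-β2, 77.7% of the negative control, and at 30.0 against 30.8 FPKM with it. So the miR-27 library without TGF-β2 was the lowest of the 6 for Hes1 and the lowest of the 3 untreated libraries for Dll4.

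**Figure D4:**
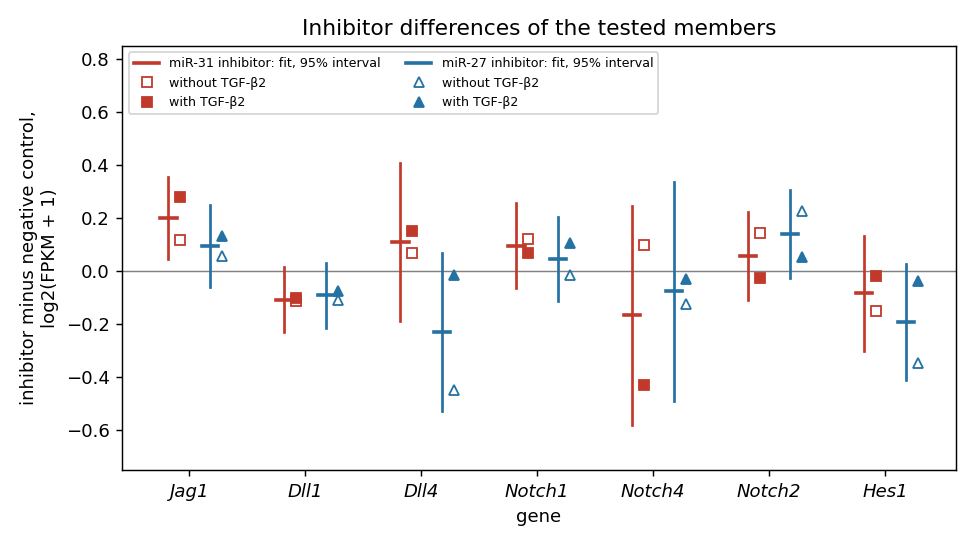
Difference of each inhibitor from the negative control on the log2(FPKM + 1) scale for the 7 tested genes; bars are the fit over both TGF-β2 states with its 95% interval, open and filled symbols the differences without and with TGF-β2. All intervals but that of Jag1 with the miR-31 inhibitor include 0, and the 2 states lie far apart for Notch4 with the miR-31 inhibitor and for Dll4 with the miR-27 inhibitor.

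The genes whose profiles over the 6 libraries were closest to each member were found by the root mean square distance between centred log2(FPKM + 1) values. This is a description over 6 libraries that share the TGF-β2 contrast. The scale understates changes of low genes, so a close profile need not have the same fold change. Mean Dll1 went from 10.6 to 2.68 FPKM with TGF-β2, its neighbour Gap43 from 16.4 to 4.28, and its neighbour Slc14a1 from 2.49 to 0.122. Nearest to Dll4 were Nptxr (0.10), Ap3b2 (0.11) and F2rl3 (0.14), and nearest to Dll1 were Igfbp6, Slc14a1 and Gap43 (0.07 each). Jag1 lay closest to Snrk, Rasgrp3 and Tmc8 (0.03 each), and Notch1 to Sox7 (0.02), Alas1 and Nab2 (0.03 each). For Notch4 they were Apln (0.06), Gimap6 and S100a13 (0.07 each), for Hes1 Erf, Dusp14 and Fam43a (0.06 each), and for Notch2, which barely varied, EG630579, Purg (0.01 each) and Sbno1 (0.02).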

How the data were processed

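RNA of 6 MS-1 libraries was measured by directional RNA-seq after rRNA depletion, per the labels' protocols. The authors deposited 1 table of FPKM values, made with TopHat2 2.0.9, Cufflinks 2.1.1 and build mm9, per the submitters' processing notes. The annotation and counting options are not given in the sources used here. Deposited starts were raised by 1 so that coordinates count from 1.

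The deposited FPKM entered as log2(FPKM + 1). Genes averaging 1 FPKM or more were tested with limma 3.58.1 (R 4.3.3) in an additive model of inhibitor and TGF-β2, 2-sided, with Benjamini-Hochberg adjustment over all of them. Calls are at an adjusted p under 0.05. Residual degrees of freedom were 2 and prior ones 2.87, and the script was tested on simulated data. Relative depth is the most frequent ratio between libraries of values under 0.03 FPKM.

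All 10 members are named. From each other list the 4 genes with the largest TGF-β2 difference could be named; Rbpj, Nr2f2, Cxcr4 and the single cell type markers were named after their values were seen. For each tested member the 3 closest profiles were named, leaving out short RNAs and most unnamed models. Names with Gm, LOC, mKIAA, AK, BC or Rik were left out, but EG630579 was not. The values of 1 listed gene are not reported here. The members and lists were chosen with earlier results of these data known. Alternatives tried were pseudocounts, filters, scalings, moderation, no inhibitor term and leaving out each library.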

Additional observations from a re-analysis of the deposited data

Results flagged for a closer look

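The responses of Notch2 to TGF-β2 lay on both sides of 0. On the log2(FPKM + 1) scale the response was 0.159 in the negative control. It was -0.0097 under miR-31 inhibition and -0.0123 under miR-27 inhibition. Each response is 1 library against 1, and the difference between them was not tested.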

How the results depend on the processing

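The TGF-β2 calls of Dll1, Jag1, Notch1 and Hes1 kept their direction and passed under all 14 alternatives, and that of Dll4 under the 13 in which it was tested, since its mean is under 5 FPKM. Notch4 passed under 13 of 14 and missed only without a filter on low values (-0.83, adjusted p = 0.0512). Leaving out either library of a transfection gives the same TGF-β2 estimate, because the other then has no partner. Over all genes, scaling to the same sum turned 2677 higher and 3249 lower genes into 3513 and 1613, and upper-quartile scaling into 3183 and 2717. Differences near 0 changed sign when a library was left out. The ranges were -0.011 to 0.0749 for Notch2 with TGF-β2; -0.0182 to 0.239 for Dll4, -0.0269 to 0.144 for Notch2, -0.454 to 0.123 for Notch4 and -0.193 to 0.0271 for Hes1 with the miR-31 inhibitor; and -0.0271 to 0.120 for Notch1 and -0.256 to 0.104 for Notch4 with the miR-27 inhibitor. The number of members called with the miR-31 inhibitor ranged from 0 to 1, the 1 being Notch4 when the untreated miR-31 library was left out; the cause was not tested. Calls over all genes fell from 5926 to 3566 without either negative-control library and to 3917 without either miR-27 library. For the miR-31 inhibitor 4 of all genes passed, against 51 under scaling to the same sum, 13 with trended and robust moderation, 0 with no filter, and 3 to 1137 when a library was left out. For the miR-27 inhibitor it was 1, against 2 under scaling to the same sum, 0 with no filter, and 1 to 12 when a library was left out. With fewer than 10 fragment steps in 5 of the 6 libraries, depth limits Hey2, and it limits Hey1 in all.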

Other observations

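Genes that mark arterial, venous and tip endothelial cells, fates in which Notch takes part, did not move as blocks with TGF-β2. Of 9 tested arterial genes, which include Dll4, Notch1 and Notch4, 4 were higher and 5 lower, in a comparison where 22.7% of all genes tested were higher and 27.5% lower. The transcription factor gene Sox18 rose by 1.83 ± 0.13 (limma adjusted p = 5.055e-04) and the co-receptor gene Nrp1 by 0.97, while Sox7 fell by 0.55. The untested arterial genes, Sox17, Gja4, Gja5, Bmx, Hey1 and Hey2, were at most 0.158 FPKM, a level that Hey2 reached. Of 5 tested venous genes, 3 were higher, among them the sialomucin gene Emcn (0.80) and the ephrin receptor gene Ephb4 (0.73), and 2 were lower, Nrp2 (-0.36) and Nr2f2 (-0.32). The call of Nr2f2 was lost under scaling to the same sum (adjusted p = 0.0540).

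Of 10 tested tip cell genes, Dll4 among them, 6 were lower and 4 higher, beside 27.5% and 22.7% of all genes tested. Angpt2, a ligand of the receptor Tek, fell by 3.41 ± 0.06 (limma adjusted p = 2.079e-05), and Plaur, the urokinase receptor gene, by 1.88. Esm1, a secreted proteoglycan of sprouting vessels, rose by 1.98 ± 0.12 (adjusted p = 3.332e-04), from 21.7 ± 5.2 to 87.3 ± 5.5 FPKM (SD over 3 libraries). Cxcr4 also fell (-0.45, adjusted p = 0.0378), and its call was lost under scaling to the same sum (adjusted p = 0.0535).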
